A study of Drosophila melanogaster with 12 samples.

Results

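The Bomanins are a family of small secreted peptides of the fly's humoral immune response, measured here in Drosophila melanogaster females that had mated 2 times, 1 time or not at all. The family was taken as every probe set that the platform annotation gives a single gene symbol starting with BomS, BomT or BomBc, and a gene with several probe sets was to be represented by the brightest over the 12 arrays. This gave 8 genes, each with 1 probe set, among 11982 genes and 18769 probe sets: the short forms BomS2, BomS4, BomS5 and BomS6, the tailed forms BomT2 and BomT3, and the bicipital forms BomBc2 and BomBc3. The RefSeq gene table lists 12 Bomanin genes, and BomS1, BomS3, BomT1 and BomBc1 were not analysed here. The members were chosen by symbol, and the mean level over the 12 arrays was the 1 measured value in the rule. The family itself was proposed with results of these arrays in view, in which BomS2, BomS5, BomT2, BomBc2 and BomBc3 had already been seen, so the tests below, adjusted over all 18769 probe sets, are not independent evidence for the choice.

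Bomanin genes are switched on by the Toll pathway, the branch of insect immunity that answers fungi and many Gram-positive bacteria. Recognition proteins in the hemolymph start a serine protease cascade that cleaves the ligand Spätzle, the receptor Toll then signals through the kinase Pelle, the inhibitor Cactus is destroyed, and the transcription factors Dif and Dorsal enter the nucleus. In adults the fat body makes most of the peptide and releases it into the hemolymph. A short form is little more than the Bomanin motif itself, a tailed form carries an extension behind the motif, and a bicipital form has a pair of motifs joined by a linker. Flies that lack the main gene cluster succumb to infections that Toll normally controls.

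All flies came from LHM, a large outbred wild-type laboratory population, and the 4 arrays of each group were each hybridized with a separate pool of 8 whole flies. All were taken as virgins on day 9 and then lived alone. Double mated females met tester males in both mating rounds, on days 12 and 13. Single mated females were kept from males on day 12, and the deposited description breaks off as the day 13 round begins, so their mating is read as that of day 13. Virgin females stayed without males, and all 3 groups received 0.375 mg of live yeast from day 12. Mated females were frozen 6 hours after mating, read here as the last mating. The tester males were crosses of inbred lines derived from LHM and were not virgins themselves. Virgin and single mated females were also anesthetized briefly when the males were removed on day 12. In double mated females a second mating and the longer time since a first mating cannot be told apart. Values are log2 RMA expression values, on which a difference of 1 is a 2-fold difference. In RNA of whole flies, more cells of a type and more RNA per cell cannot be told apart.

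The medians of the 12 arrays lay between 5.97 and 6.07, with those of the 4 virgin arrays lowest. Double mated replicate 4 stood furthest from its group. Its deviations from the rest of the group had an SD of 0.245, where no other array exceeded 0.185, and its limma array weight of 0.294 was the lowest. Results that turn on this array are given without it as well. The sex on the label was borne out by marker genes. All 7 measured markers of the female reproductive system averaged at least 9.65 over the arrays, and 11 of 12 male reproductive markers lay below the median of all probe sets. The Bomanin probe sets averaged between 9.35 (BomT3) and 12.30 (BomS6), well above that median of 6.02, so no member was dim. Levels of different probe sets are not set against each other, since probes differ in how strongly they bind.

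Most Bomanin genes were higher in double mated females than in either other group. Against single mated females, double mated females had 7 of 8 members higher and none lower at a Benjamini-Hochberg adjusted p under 0.05 in limma. Against virgins, double mated females had 6 members higher and none lower. Single mated females had 3 members lower than virgins, BomS6, BomT2 and BomBc2, and none higher. Of all probe sets, 3.55% were called higher and 1.74% lower in double than in single mated females. The shares were 12.3% higher and 15.7% lower for double mated females against virgins, and 4.49% higher and 5.17% lower for single mated females against virgins. The moderated F test over the 3 groups called 8 of 8 members, against 24.9% of all probe sets.

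The median change over the 8 members was 0.99 for double against single mated females, 0.55 for double mated females against virgins and -0.38 for single mated females against virgins. The corresponding medians over all probe sets were -0.03, -0.02 and 0.00. All 8 members had a positive difference between double and single mated females, from 0.51 to 1.34. Against virgins the members ranged from -0.14 to 1.56 in double mated females and from -0.99 to 0.25 in single mated females. The 2 comparisons against virgins share the virgin arrays, so they are given side by side and not correlated.

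**Figure D1:**
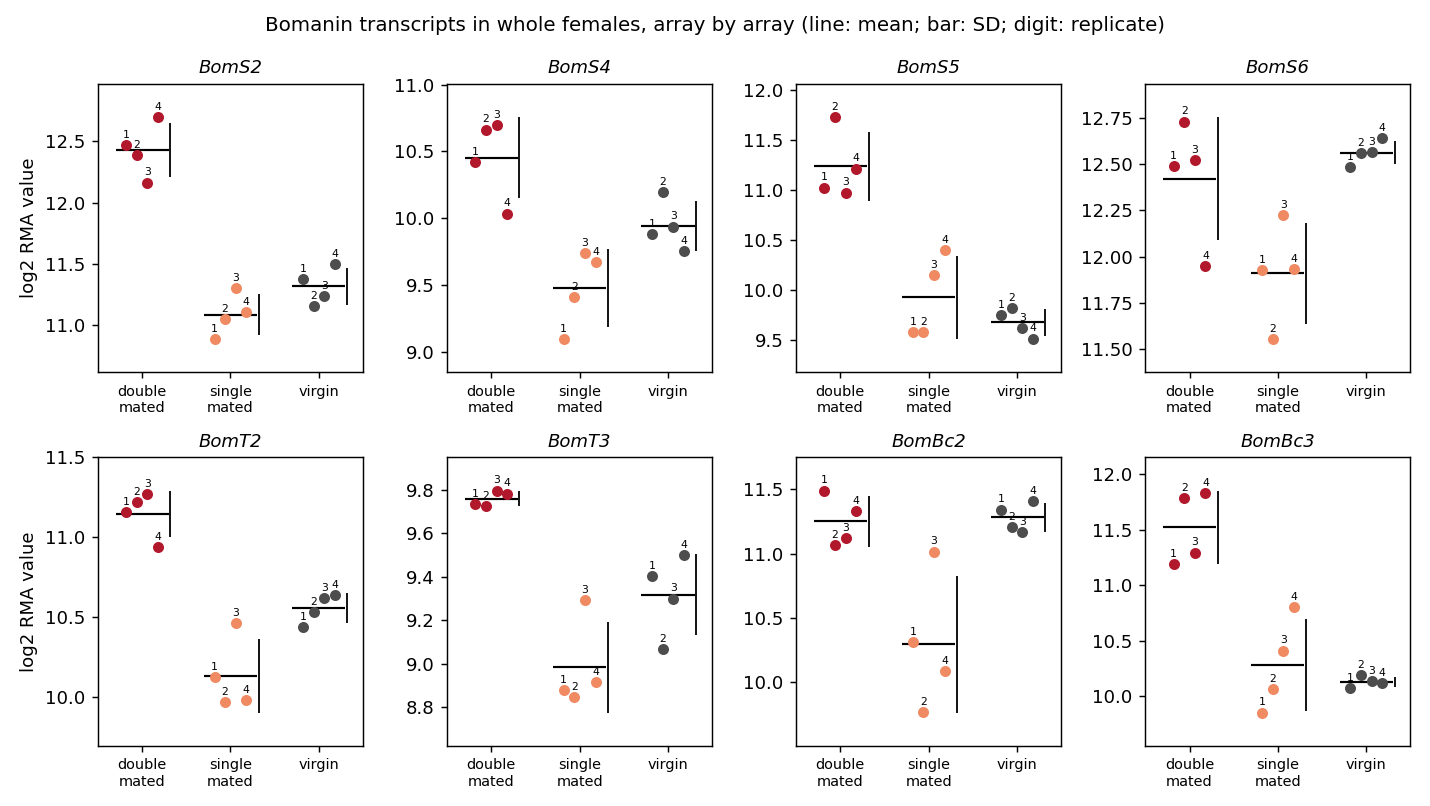
Log2 RMA value (vertical axis) of each Bomanin gene on each of the 12 arrays, by group; digits are replicate numbers, horizontal lines group means and vertical bars the SD over 4 arrays. BomS2, BomS5, BomT2, BomT3 and BomBc3 have all 4 double mated arrays above the other 8 arrays, while BomS6 and BomBc2 have double mated and virgin arrays at like levels and single mated arrays below the virgins.

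Short-form Bomanins are the abundant peptides of this family in the hemolymph of infected flies. BomS2 had values of 12.47, 12.39, 12.16 and 12.70 in double mated females, 10.89, 11.05, 11.30 and 11.11 in single mated females, and 11.37, 11.16, 11.24 and 11.50 in virgins. Every double mated array lay above every other array, and the single mated and virgin arrays overlapped. Its level averaged 12.43 ± 0.22 in double mated, 11.09 ± 0.17 in single mated and 11.32 ± 0.15 in virgin females (SD, n = 4 arrays each, as for all group values below). BomS2 rose 2.53-fold in double against single mated females (95% interval 2.14 to 3.00, adjusted p = 2.61e-05) and 2.16-fold against virgins (1.83 to 2.56, adjusted p = 1.43e-05). Its difference of -0.23 (SE 0.11) between single mated females and virgins did not pass (adjusted p = 0.233).

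BomS5 is a short-form gene near the end of the main cluster. It measured 11.02, 11.73, 10.97 and 11.21 in double mated females, 9.59, 9.58, 10.15 and 10.40 in single mated females, and 9.75, 9.82, 9.62 and 9.52 in virgins. Single mated replicates 3 and 4 were above all virgins and replicates 1 and 2 were not, while the double mated arrays stood clear of both groups. BomS5 had the largest change of the family against virgins, rising 2.94-fold in double mated females (2.23 to 3.89, adjusted p = 4.25e-05). It rose 2.47-fold in double against single mated females (1.87 to 3.26, adjusted p = 0.00157). The single mated and virgin means, 9.93 ± 0.41 and 9.68 ± 0.14, differed by 0.25 (SE 0.19, adjusted p = 0.447).

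BomS4 is the short-form gene whose annotated span overlaps that of BomBc2. Its values were 10.42, 10.66, 10.70 and 10.04 in double mated females, 9.10, 9.41, 9.74 and 9.67 in single mated females, and 9.88, 10.20, 9.94 and 9.75 in virgins. All single mated arrays lay below all virgin and all double mated arrays, and double mated replicate 4 fell inside the virgin range. BomS4 rose 1.96-fold in double against single mated females (1.55 to 2.48, adjusted p = 0.00330). Against virgins it rose 1.43-fold in double mated females (1.13 to 1.80, adjusted p = 0.0244). That call ended without virgin replicate 1, 3 or 4 or double mated replicate 2 or 3, at adjusted p between 0.0537 and 0.0791, and with a trend on gene length removed (0.38, adjusted p = 0.0535). The difference of -0.46 (SE 0.16) between single mated females and virgins missed the threshold (adjusted p = 0.0795). It passed without double mated replicate 4 (adjusted p = 0.0363), with arrays weighted by quality (0.0305), with arrays centred on their medians (0.0320), with the length trend removed (0.0310) and when only these 2 groups were fitted (0.0484).

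BomS6, the last gene of the cluster, departed from the other short forms. It measured 12.49, 12.73, 12.52 and 11.95 in double mated females, 11.93, 11.56, 12.22 and 11.93 in single mated females, and 12.48, 12.56, 12.57 and 12.64 in virgins. The virgin arrays were tightly grouped above all single mated arrays, 3 double mated arrays lay at the virgin level, and double mated replicate 4 lay among the single mated arrays. BomS6 fell to 0.637 of the virgin level in single mated females (0.510 to 0.794, adjusted p = 0.0146). In double mated females it was 0.908 of the virgin level (0.728 to 1.13, adjusted p = 0.554), an interval that includes no change. The difference of 0.51 (SE 0.15) between double and single mated females did not pass (adjusted p = 0.0629). Without double mated replicate 4 it was 0.67 and passed (adjusted p = 0.00465), and the difference from virgins was then 0.02. It also passed without single mated replicate 3 (0.62, adjusted p = 0.0414), with arrays weighted by quality (0.65, adjusted p = 0.00939) and among probe sets at or above the median level (adjusted p = 0.0453).

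The tailed forms shared one profile although their genes lie on different chromosome arms. BomT2 had 11.16, 11.22, 11.27 and 10.94 in double mated females, 10.12, 9.97, 10.46 and 9.98 in single mated females, and 10.44, 10.53, 10.62 and 10.64 in virgins. The double mated arrays were all highest, and only single mated replicate 3 reached into the virgin range. BomT2 rose 2.02-fold in double against single mated females (1.73 to 2.35, adjusted p = 1.28e-04) and by 0.59 against virgins on the log2 scale (0.36 to 0.81, adjusted p = 7.10e-04). In single mated females it fell to 0.746 of the virgin level (0.638 to 0.871, adjusted p = 0.0210). The last call ended without virgin replicate 3 or 4 or single mated replicate 2 or 4, at adjusted p between 0.0598 and 0.0770, and under cyclic loess (-0.36, adjusted p = 0.0529).

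BomT3 had 9.73, 9.73, 9.80 and 9.78 in double mated females, 8.88, 8.85, 9.29 and 8.92 in single mated females, and 9.40, 9.07, 9.30 and 9.50 in virgins. Its double mated arrays were the most alike of any group in the family (SD 0.035) and lay above all others, and single mated replicate 3 again sat at the virgin level. BomT3 rose 1.71-fold in double against single mated females (1.47 to 2.00, adjusted p = 9.32e-04) and 1.36-fold against virgins (1.17 to 1.58, adjusted p = 0.00459). The difference of -0.33 (SE 0.10) between single mated females and virgins missed the threshold (adjusted p = 0.0542). It passed without virgin replicate 2 (-0.42, adjusted p = 0.0237), without single mated replicate 3 (-0.44, adjusted p = 0.0113), with arrays centred on their medians (-0.39, adjusted p = 0.0213), with a trended and robust variance model (adjusted p = 0.0363) and among probe sets at or above the median level (adjusted p = 0.0337).

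The bicipital forms had unlike profiles. BomBc3 measured 11.19, 11.78, 11.29 and 11.83 in double mated females, 9.85, 10.06, 10.41 and 10.80 in single mated females, and 10.08, 10.19, 10.13 and 10.12 in virgins. Its double mated arrays were above all others, and single mated arrays lay on either side of the narrow virgin range. BomBc3 rose 2.36-fold in double against single mated females (1.81 to 3.09, adjusted p = 0.00168) and 2.63-fold against virgins (2.01 to 3.43, adjusted p = 6.93e-05). Its difference between single mated females and virgins was 0.15 (SE 0.18, adjusted p = 0.656).

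BomBc2 had 11.49, 11.06, 11.12 and 11.33 in double mated females, 10.31, 9.77, 11.01 and 10.09 in single mated females, and 11.34, 11.21, 11.17 and 11.41 in virgins. All single mated arrays lay below all others, by a wide margin except for replicate 3, and the double mated and virgin arrays overlapped. BomBc2 fell to 0.505 of the virgin level in single mated females (0.379 to 0.673, adjusted p = 0.00670), the largest decrease of the family. Double mated females stood at 0.979 of the virgin level (0.735 to 1.30, adjusted p = 0.935) and rose 1.94-fold against single mated females (1.46 to 2.58, adjusted p = 0.0116). The fitted values of BomBc2 and BomBc3 for double mated females against virgins were -0.03 (95% interval -0.44 to 0.38) and 1.40 (1.01 to 1.78), and these intervals do not overlap; the difference between the genes was not tested.

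**Figure D2:**
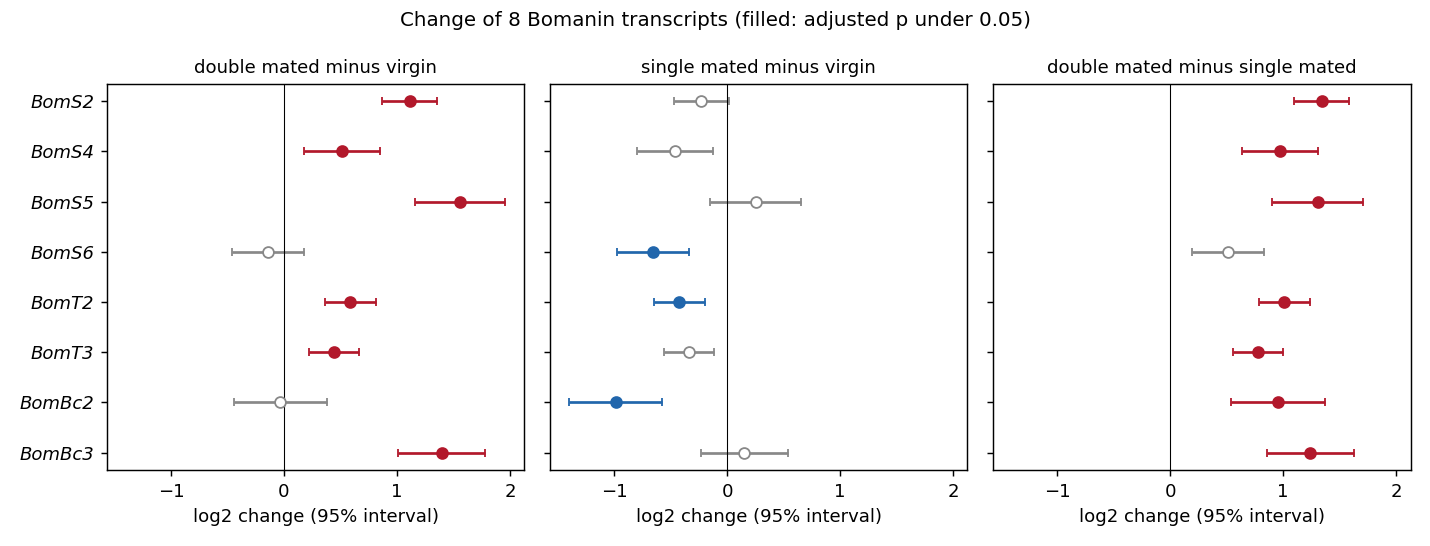
Log2 change of each Bomanin gene (horizontal axis, point with 95% interval) for double mated minus virgin, single mated minus virgin and double mated minus single mated females; filled points passed an adjusted p of 0.05. The right panel holds positive changes for all 8 genes, the middle panel holds 3 called decreases, and BomS6 and BomBc2 stand near 0 in the left panel.

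By the order of the group means, the family fell into 3 patterns, named after the values were seen and therefore a description. BomS2, BomS4, BomT2 and BomT3 had the order double mated, virgin, single mated, with the virgin and single mated levels of BomS2, BomS4 and BomT3 not differing beyond the threshold. BomS5 and BomBc3 had the order double mated, single mated, virgin, with no called difference between the lower pair. BomS6 and BomBc2 had virgin and double mated levels that did not differ beyond the threshold, with single mated females lowest. All 4 double mated arrays lay above all 8 other arrays for 5 members, BomS2, BomS5, BomT2, BomT3 and BomBc3, as they did for 4.19% of all probe sets. Double mated arrays lay above all single mated arrays for 7 of 8 members (5.63% of all probe sets) and above all virgin arrays for 5 (11.6%). Single mated arrays lay below all virgin arrays for 3 members, BomS4, BomS6 and BomBc2 (12.5%).

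By form of the peptide, the short forms fell in all 3 patterns and the bicipital forms in different ones, while both tailed forms fell in the first. With 2 to 4 genes per form, whether form goes with pattern was not tested. Short forms had 3 of 4 members called higher in double mated females than in virgins, with changes from -0.14 to 1.56, tailed forms 2 of 2 (0.44 to 0.59) and bicipital forms 1 of 2 (-0.03 to 1.40). Each form held 1 of the 3 members called lower in single mated females.

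Measured genes next to each other could also differ in pattern. Of the 12 Bomanin genes in RefSeq, 10 follow each other on chromosome arm 2R with no other annotated gene starting between them, in the order BomT1, BomBc1, BomS1, BomS4, BomBc2, BomS2, BomS3, BomT2, BomS5 and BomS6. BomT3 and BomBc3 are neighbours on arm 3R. The annotated spans of BomS4 and BomBc2 overlap, and where their probes lie was not examined. BomS4 rose in double mated females against virgins (0.51, SE 0.16) and BomBc2 did not (-0.03, SE 0.19). The neighbours BomS5 and BomS6 had changes of 1.56 (SE 0.19) and -0.14 (SE 0.15) in the same comparison. On arm 3R, BomT3 and BomBc3 had changes of 0.44 (SE 0.10) and 1.40 (SE 0.18).

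The nearest measured genes outside the clusters were examined with a choice made after the Bomanin values were seen. Of 3 on each side of both clusters, 12 in all, GstE1, a glutathione transferase, was called higher in double mated females than in virgins (0.43, SE 0.13, adjusted p = 0.0221) and than in single mated females (0.70, SE 0.13, adjusted p = 0.00773). Its neighbour GstE10 had 0.28 and 0.30 in these comparisons and passed neither, but had 0.44 (adjusted p = 0.00133) and 0.45 (adjusted p = 0.00549) without double mated replicate 4 and passed both. Idgf5, a secreted growth factor related to chitinases and the closest measured gene beyond BomS6, fell in single mated females (-0.31, SE 0.08, adjusted p = 0.0285), with -0.07 in double mated females against virgins. Fadd, the Imd pathway adaptor before the 3R pair, fell in double mated females against virgins (-0.40, SE 0.06, adjusted p = 1.34e-04) and against single mated females (-0.22, adjusted p = 0.0392). CG13408, the measured gene between Fadd and the pair, was not called in double mated females against virgins (-0.17, SE 0.08, adjusted p = 0.150). CG14505, on the other side of the 2R cluster, fell in double mated females against virgins (-0.31, SE 0.10, adjusted p = 0.0363). With all arrays, the calls in double mated females against virgins lay near the shares over all probe sets, 12.3% higher and 15.7% lower. Those shares were 3.55% and 1.74% in double against single mated females, and 4.49% and 5.17% in single mated females against virgins.

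Across arrays the members were alike to different degrees. Over the 12 arrays, the 28 pairs of members had Pearson correlations from 0.16 (BomS6 with BomBc3) to 0.98 (BomS5 with BomBc3), with a median of 0.74. These values contain the group differences. With the group means removed, so that only the spread of arrays within groups is left, the correlations ran from -0.29 (BomS2 with BomS4) to 0.85 (BomS5 with BomBc3), with a median of 0.33. All members were measured on the same arrays and normalized together, and with 12 arrays these coefficients are descriptions. BomS5 and BomBc3 lie on different arms and stayed the closest pair in both measures. BomS6 with BomT2 (0.82) and BomT3 with BomBc2 (0.73) followed once group means were removed.

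**Figure D3:**
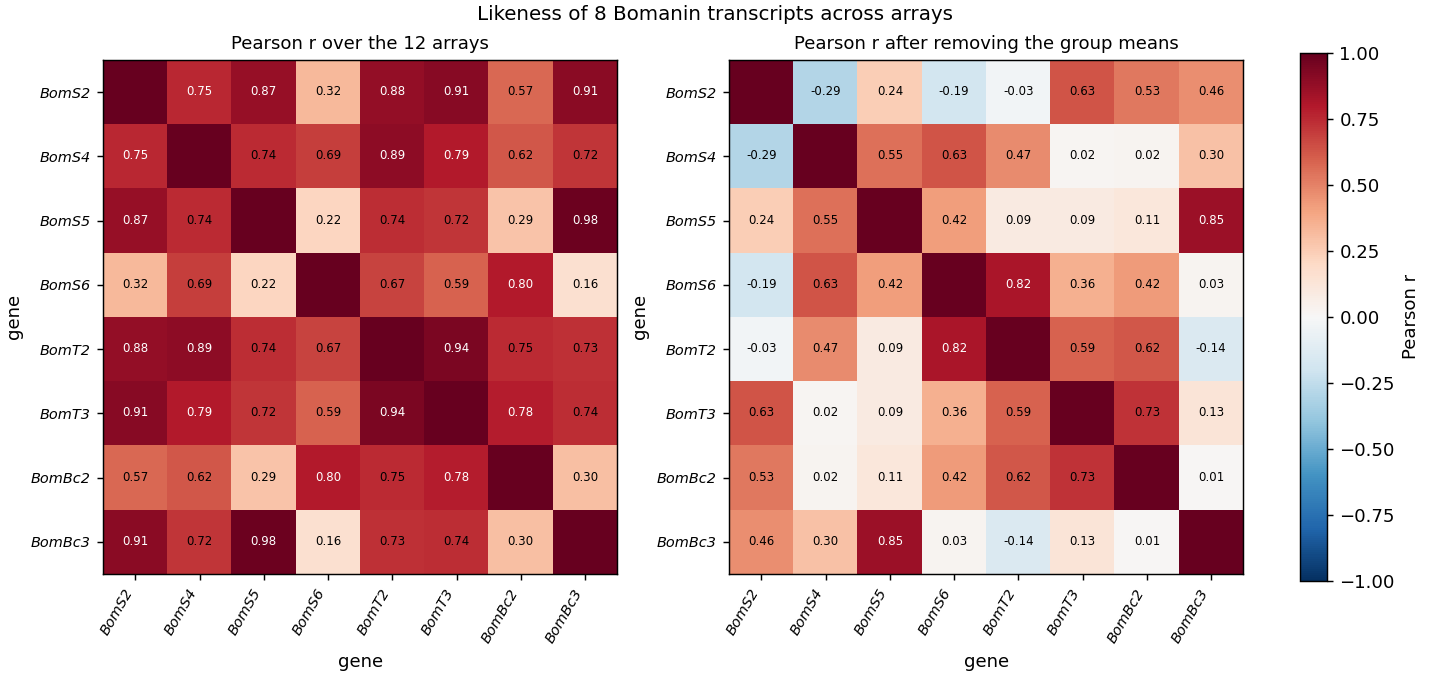
Pearson correlation between Bomanin genes over the 12 arrays (left) and after each group's mean was subtracted (right), with the coefficient printed in each cell. BomS5 with BomBc3 has the highest value in both panels, 0.98 and 0.85.

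A family profile was formed as the mean of the 8 members, each centred on its own mean over the 12 arrays. It was 0.53, 0.70, 0.52 and 0.51 on the double mated arrays, -0.63, -0.68, -0.14 and -0.35 on the single mated arrays, and -0.12, -0.12, -0.14 and -0.08 on the virgin arrays. The double mated arrays were alike and far above the rest, the virgin arrays were nearly equal, and the single mated arrays spread widely, replicate 3 touching the virgin range. The group means were 0.56 ± 0.09 in double mated, -0.45 ± 0.25 in single mated and -0.11 ± 0.03 in virgin females. Without single mated replicate 3 the median change of members for double against single mated females was 1.16 in place of 0.99.

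Genes outside the family were ranked by the likeness of their values to this profile, over 5124 genes that ranged by at least 0.5 across the arrays. The leading pair were Gbp2 and Gbp1 (r = 0.95 each over 12 arrays), which encode growth-blocking peptides, insect cytokines released by the fat body. Gbp1 had 8.48, 8.63, 8.37 and 8.27 in double mated females, 7.54, 7.49, 7.56 and 7.62 in single mated females, and 7.94, 7.96, 7.91 and 7.93 in virgins. The 3 groups did not overlap for Gbp1, with double mated arrays highest and single mated arrays lowest. It rose 1.84-fold in double against single mated females (1.66 to 2.05, adjusted p = 1.98e-05), and in single mated females it fell to 0.768 of the virgin level (0.691 to 0.854, adjusted p = 0.00509). Gbp2 rose 1.39-fold in double against single mated females (1.26 to 1.53, adjusted p = 0.00120).

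The next genes were CG6834 (r = 0.95), CG30151 (0.95), CG3505 (0.93), nub (0.93), CG11842 (0.92) and CG15784 (0.92). The gene nub encodes a POU domain transcription factor that acts on immune genes in flies, and RefSeq lists CG3505 and CG11842 under the synonyms SPH9 and SP68, names used for serine protease homologs and serine proteases. All 8 of these most similar genes were called higher in double than in single mated females, with changes from 0.40 (CG3505) to 1.18 (CG15784), which the ranking favours. With group means removed, the closest were CG15293 (r = 0.85), CG13177 (0.84), CG11192 (0.83), CG7298 (0.81) and CG1971 (0.80). Of these, CG15293 resembled BomBc2 in its groups, falling in single mated females against virgins (-0.66, SE 0.10, adjusted p = 0.00118) with -0.09 (SE 0.10) in double mated females. In double mated females against virgins CG1971 fell (-0.57, SE 0.07, adjusted p = 3.92e-05). CG7298 rose there (1.05, SE 0.34, adjusted p = 0.0302), a call lost with a trended and robust variance model (0.0886). CG13177 and CG11192 were not called in any comparison. These r values are the highest of 5124 genes and were not tested.

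**Figure D4:**
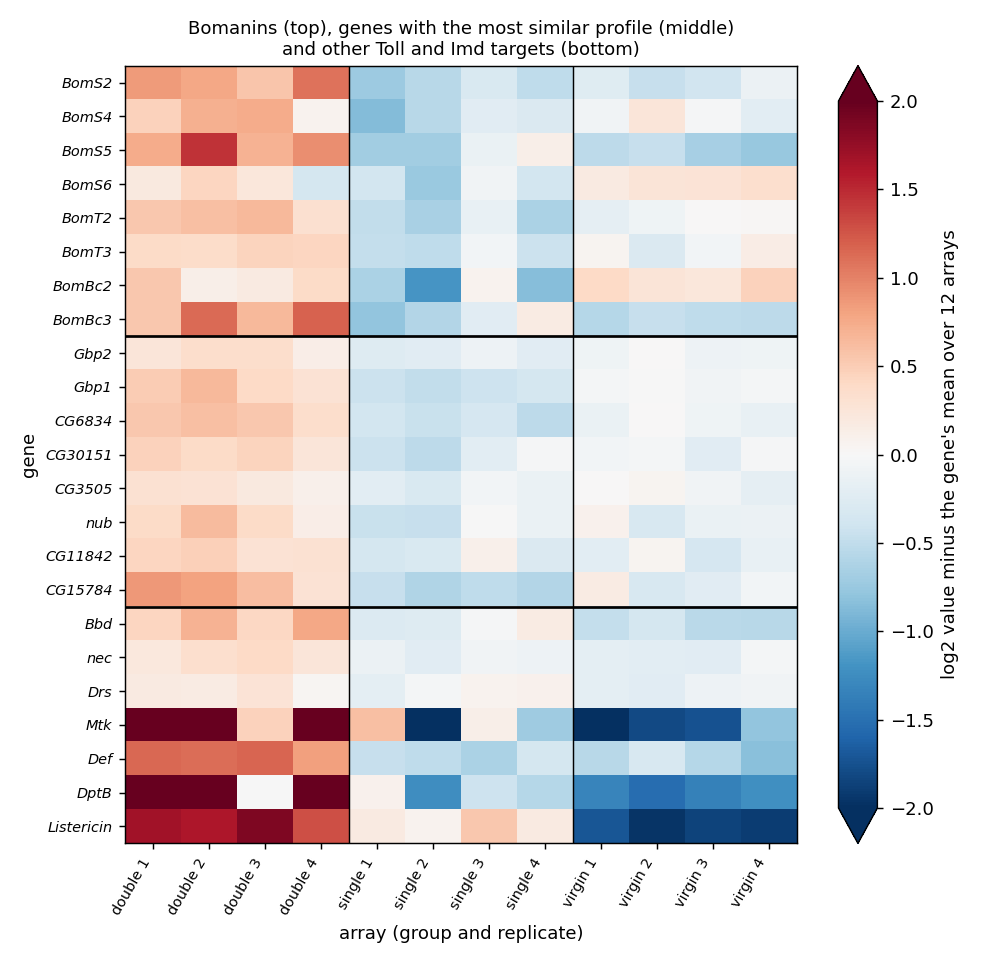
Log2 value minus the gene's mean over the 12 arrays (colour, saturated at both ends of the scale) for the 8 Bomanins, the 8 genes with the most similar profile and 7 other targets of Toll or Imd signalling, by array with double mated, single mated and virgin arrays from left to right. Mtk and DptB vary strongly between arrays of 1 group, and BomS6 and BomBc2 do not separate double mated from virgin arrays.

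The Bomanins were next set beside the pathway that controls them. Of 25 listed genes for Toll ligand processing and signalling, 21 were measured. In double mated females against virgins 6 were higher and 3 lower, in single mated females against virgins 1 and 1, and in double against single mated females 4 and 0. The medians of these changes were 0.08, -0.11 and 0.10. Over all probe sets, the shares called higher and lower in these comparisons were 12.3% and 15.7%, 4.49% and 5.17%, and 3.55% and 1.74%. The same shares apply to the lists below. The 3 lower genes and both counts for single mated females against virgins lay near those shares. The counts moved with single arrays: without double mated replicate 4, 7 genes were lower in double mated females than in virgins and 7 were higher than in single mated females, and without single mated replicate 2 or 3 the last count was 1. The gene lower in single mated females was GNBP3 (-0.25, adjusted p = 0.0481), a recognition protein for fungal glucans named after its value was seen, and it was lost without single mated replicate 2 or 4, among other arrays, and with the replicate number as a block.

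Called changes of these genes in double mated females against virgins ran in both directions, outside and inside the cell. The calls over all probe sets also ran in both directions. Among extracellular components, nec, a serpin that restrains the cascade, rose by 0.47 (SE 0.07, adjusted p = 1.26e-04) and sphe, a serine protease homolog of the cascade, by 0.61 (SE 0.11, adjusted p = 6.29e-04). The ligand gene spz fell by 0.30 (SE 0.07, adjusted p = 0.00481). Inside the cell, the kinase gene pll fell by 0.31 (SE 0.07, adjusted p = 0.00433) and the inhibitor gene cact by 0.24 (SE 0.06, adjusted p = 0.0130). The call of cact ended under cyclic loess (-0.15, adjusted p = 0.0729). The kinase gene aPKC rose by 0.51 (SE 0.08, adjusted p = 3.77e-04), and Pli, which encodes a Pellino protein that acts on Pelle and was named after its value was seen, by 0.30 (adjusted p = 0.00596). The receptor gene Tl had -0.09 (SE 0.08, adjusted p = 0.473) and Dif, the main Toll transcription factor of adult fat body, -0.01 (SE 0.24, adjusted p = 0.988). Double mated replicate 4 decided both values: Dif read 7.74 there and 6.40, 6.40 and 6.42 on the other double mated arrays. Without that array Dif had -0.34 (SE 0.12, adjusted p = 0.0479) and passed, and Tl had -0.18 (SE 0.07, adjusted p = 0.0597). Between single mated females and virgins Pli was the 1 gene called higher (0.34, adjusted p = 0.0102), and sphe, at 0.18 (adjusted p = 0.338), passed without double mated replicate 4 (adjusted p = 0.0280).

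Of 17 other Toll targets, 12 were measured, and 6 were higher in double mated females than in virgins, 1 was higher in single mated females than in virgins and 4 were higher in double than in single mated females, with none lower in any comparison. The 12 include Drsl1 to Drsl6, and 4 of the 12 averaged below the median of all probe sets. The serpin gene nec is also on the list of Toll signalling genes above and is counted in both lists. Membership follows the list, and how far each gene depends on Toll was not tested. Bbd, known as bombardier and needed for short-form Bomanins to build up in the hemolymph, is the target closest to the family in function. Bbd had 12.31, 12.57, 12.29 and 12.66 in double mated females, 11.60, 11.61, 11.86 and 12.05 in single mated females, and 11.39, 11.52, 11.34 and 11.32 in virgins. The 3 groups did not overlap and were ordered double mated, single mated, virgin, the order of BomS5 and BomBc3. It rose 2.09-fold in double mated females against virgins (1.78 to 2.45, adjusted p = 1.36e-05) and 1.60-fold against single mated females (1.36 to 1.87, adjusted p = 0.00298). The rise of 0.39 (SE 0.11) in single mated females against virgins passed (adjusted p = 0.0361), and ended without virgin replicate 1, 3 or 4 or single mated replicate 3 or 4 (adjusted p from 0.0759 to 0.118) and with arrays centred on their medians (0.0507).

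Drs encodes the antifungal peptide drosomycin. It rose 1.25-fold in double mated females against virgins (1.12 to 1.39, adjusted p = 0.00488), with 0.18 (SE 0.07, adjusted p = 0.173) against single mated females. Mtk, the antifungal peptide metchnikowin, measured 12.55, 11.29, 9.61 and 12.09 in double mated females, 9.73, 6.60, 9.25 and 8.42 in single mated females, and 7.04, 7.33, 7.39 and 8.34 in virgins. It varied over several units within each mated group, and double mated replicate 3 lay below single mated replicate 1. Mtk rose 14.5-fold in double mated females against virgins (5.57 to 37.7, adjusted p = 4.44e-04) and 7.37-fold against single mated females (2.83 to 19.2, adjusted p = 0.0191). The second call ended without double mated replicate 1 (adjusted p = 0.0521), with a trended and robust variance model (0.0697) and when only these 2 groups were fitted (0.0509). The serpin gene Spn28Dc rose by 0.51 (SE 0.07, adjusted p = 9.00e-05) in double mated females against virgins.

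Targets of the Imd pathway, which answers Gram-negative bacteria, also moved in the double mated group. Of 18 listed, 9 were measured, with 7 higher in double mated females than in virgins, 1 higher in single mated females than in virgins and 4 higher in double than in single mated females, and none lower in any comparison. The count in single mated females against virgins was 3 without single mated replicate 2. Def, encoding the antibacterial peptide defensin, spanned 8.98 to 9.33 in double mated, 7.53 to 7.81 in single mated and 7.34 to 7.85 in virgin females. It rose 3.10-fold in double mated females against virgins (2.65 to 3.62, adjusted p = 7.67e-07), with 0.08 (SE 0.11) in single mated females. Listericin, an antibacterial peptide gene, averaged 10.68 ± 0.25, 9.30 ± 0.20 and 7.20 ± 0.11 in double mated, single mated and virgin females. DptB, encoding diptericin B, spanned 8.35 to 11.30 in double mated, 7.12 to 8.45 in single mated and 6.84 to 7.13 in virgin females. Single mated means lay below virgin means for 6 of 8 Bomanins, for 1 of 12 other Toll targets and for 1 of 9 Imd targets. These targets were Drsl6 (-0.06), with a mean of 4.36 over the arrays, and PGRP-LF (-0.24), with 6.14. Over all probe sets the median change in this comparison was 0.00, so signs over all probe sets fell on both sides. Of these values, 3 Bomanins were called lower, and 1 other Toll target and 1 Imd target higher. The difference between these sets of genes was not tested.

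Markers of tissues that make or could carry Bomanin RNA moved in part with these results, and their part in them was not tested. The fat body, hemocyte and reproductive markers follow the lists. How far each gene is confined to its listed tissue in these flies was not tested. Of 5 measured fat body markers, 2 were higher and 1 lower in double mated females than in virgins, and none was called between double and single mated females, with no member at an unadjusted p under 0.05 there. The lipid transfer particle Apoltp rose by 1.21 (SE 0.11) and apolpp by 0.25 (SE 0.06) in double mated females against virgins, while the storage protein Lsp2 fell by 0.85 (SE 0.22). The log2 of the summed signal of the 5 markers lay between 14.01 and 14.27 in double mated, 14.14 and 14.36 in single mated and 13.99 and 14.21 in virgin females. Of the 5, 2 lay below the median of all probe sets, Fbp1 and Fbp2, with means of 5.11 and 4.58 over the arrays.

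Hemocyte markers, of which 10 of 10 were measured, were higher for 7 in double mated females against virgins, 4 in single mated females against virgins and 2 in double against single mated females, a count that was 1 without any of virgin replicates 1 to 3, single mated replicates 1 to 3 and double mated replicates 2 and 3, and with the replicate number as a block. The log2 of their summed signal lay between 12.26 and 12.38 in double mated, 11.96 and 12.14 in single mated and 11.69 and 11.80 in virgin females. Bright markers such as vkg and Col4a1, with means of 10.40 and 9.91 over the arrays, weigh most in this sum. Its relation to the Bomanin values was not tested. In double mated females against virgins, srp rose by 1.01 (SE 0.12), vkg by 0.77 (SE 0.08), Col4a1 by 0.66 (SE 0.07), crq by 0.35 (SE 0.06) and Pxn by 0.31 (SE 0.07). The hemocyte markers Hml (-0.04, adjusted p = 0.781), eater (0.05, adjusted p = 0.748) and He (0.12, adjusted p = 0.324) were not called in that comparison. Female reproductive markers were higher for 4 of 7 in double mated females against virgins, 2 of 7 in single mated females against virgins and 3 of 7 in double against single mated females. The count of 2 was 0 without virgin replicate 3 or 4 or single mated replicate 2 or 4, and 1 without virgin replicate 1. Among them psd, Vm32E and Vm26Aa, of the eggshell, rose by 1.56 (SE 0.14), 1.66 (SE 0.22) and 0.97 (SE 0.14) in double mated females against virgins, and the yolk protein gene Yp2 by 0.27 (SE 0.06). Male reproductive markers had 0 of 12 called in any of the 3 comparisons in limma, with 1 at an unadjusted p under 0.05 in double mated females against virgins and 2 in each of the others. At most 1 was called under any alternative setting.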

How the data were processed

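RNA of 12 pools of whole females was hybridized to Affymetrix Drosophila Genome 2.0 arrays, 1 array per pool. The deposited values are log2 expression values per probe set and array, and the submitters' processing notes name RMA and affy, with no versions. RMA corrects background and quantile-normalizes, so values are relative within the set of arrays. Arrays have no read depth, and precision is set by their number. Of 18952 probe sets, 183 Affymetrix controls were left out and 18769 were tested without a filter on signal.

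Groups came from the sample titles. Group means were fitted with limma 3.58.1 in R 4.3.3 (lmFit, eBayes) on all 12 arrays, with Benjamini-Hochberg adjustment over all probe sets and a threshold of 0.05. The fit was first tested on simulated data. Alternatives were cyclic loess, median centring, a gene length trend, a filter on dim probe sets, a trended robust variance, array weights, a replicate block, 2 groups at a time, the dimmest probe set, a stricter threshold and each array left out. Symbols came from GEO's platform annotation, updated through RefSeq gene identifiers (Release 6 gene table, used for names and gene order only).

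Members and gene lists were chosen with earlier results of these data known. All members are named; of each list, up to 5 called members by the smallest p for double mated against virgin, with 14 further genes of the naming rule, of which Dso1, Dso2 and BaraA1 had no probe set with 1 symbol here. The 8 genes most like the family profile, and 5 with group means removed, were taken by Pearson r. Same-numbered arrays of different groups had deviations correlated between -0.26 and 0.14, with 1 of 12 pairs over 0.1, so numbers were not taken to pair arrays.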

Additional observations from a re-analysis of the deposited data

Results flagged for a closer look

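BomT3 on single mated replicate 3 read 9.29, against 8.92 for the nearest of the other 3 single mated arrays, and this gap took up most of the range of its group. It was the 1 array set apart in this way among 24 member and group combinations, and chance alone flags about 1 in 20.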

How the results depend on the processing

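Over 24 member changes and 22 alternative settings, 492 of 528 values kept their direction and their side of the threshold, 15 lost a call, 14 gained one and 7 changed sign. Each change of sign was of an uncalled value near 0. BomBc2 in double mated females against virgins became 0.065 under cyclic loess and lay between -0.11 and 0.032 when each array was left out in turn. BomS6 in the same comparison became 0.0014 with array weights and lay between -0.24 and 0.018 without single arrays, and BomBc3 in single mated females against virgins lay between -0.020 and 0.30. The count of members lower in single mated females than in virgins, 3, was 5 after median centring of the arrays and 1 at an adjusted p under 0.01, which asks more of each gene. Centring subtracts array medians, which were 5.971 to 5.985 in virgins and 6.005 to 6.070 in single mated females. It took BomS4 from -0.46 to -0.52 and BomT3 from -0.33 to -0.39. Why the medians differ was not tested. Leaving out each array in turn gave 2 to 4 members lower in single mated females than in virgins. It gave 5 to 6 members higher in double mated females than in virgins, and 7 to 8 higher than in single mated females. The median change of members then lay between 0.95 and 1.16 for double against single mated females, 0.49 and 0.65 for double mated females against virgins, and -0.49 and -0.32 for single mated females against virgins. No member was called higher in single mated females, or lower in double mated females, under any setting run. The fit with the replicate block called 6 members higher in double mated females than in virgins, 3 lower in single mated females than in virgins and 7 higher in double than in single mated females, as without it. Among the listed genes the block took the Toll signalling genes lower in single mated females than in virgins to 0, against 1 without it, and the hemocyte markers higher in double than in single mated females to 1, against 2, with the calls of Yp2 (single mated against virgin, adjusted p = 0.0638), vkg (0.0628) and CG1971 (0.0860, both double against single mated) lost. The array of the same number was the best match within the group compared against in 3 of 12 cases. These were double mated replicates 1, 2 and 4 against virgins, with correlations of 0.06, 0.10 and 0.14. Whether the match also held in the reverse direction was not examined. Every member had 1 probe set, so the choice of probe set could change nothing. The removal of a trend on gene length, with lengths for 99.3% of genes and 8 of 8 members, was chosen after seeing the data in place of a planned one on protein length, which was not run.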
